A study of Mus musculus with 31 samples.

Results

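The effect of dexamethasone (Dex) was measured in mouse macrophages whose BRD9 protein had been targeted by the degrader dBRD9 and which were then stimulated with lipopolysaccharide (LPS). The 6 RNA-seq libraries were taken by their labels, 3 given Dex, dBRD9 and LPS and 3 given dBRD9 and LPS, out of 31 libraries in all, and all genes were examined. The macrophages were grown from bone marrow of male C57BL/6J mice aged 6 to 12 weeks in medium conditioned by L-929 cells. Dex was given at 1 µM and dBRD9 at 250 nM overnight, and LPS at 100 ng/ml for the last 3 h, so the groups differed in Dex alone. The labels give treatments but no separate mice, cultures or days for the replicates, so every p-value measures the spread between these libraries, which may be technical.

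The same effect was set beside 3 others, without a BRD9 compound, with another BRD9 compound, and with dBRD9 and interferon-gamma (IFNγ). Without a BRD9 compound, 3 libraries with Dex + LPS stood against 3 with LPS. With the bromodomain inhibitor iBRD9, 3 libraries with Dex + iBRD9 + LPS stood against 3 with iBRD9 + LPS. The labels give doses of iBRD9 for the study and none per sample, so the compounds cannot be compared at a matched dose. In a second experiment, 2 libraries with Dex + dBRD9 + IFNγ + LPS stood against 2 with dBRD9 + IFNγ + LPS. The labels state neither dose nor timing of IFNγ. The response to LPS itself came from 3 libraries with LPS and 3 vehicle libraries of the first experiment.

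Glucocorticoids bind the glucocorticoid receptor, a nuclear receptor encoded by Nr3c1, which enters the nucleus and binds response elements beside genes that it activates. In macrophages the liganded receptor is also known to restrain inflammatory genes driven by NF-κB, AP-1 and interferon regulatory factors. BRD9 is a bromodomain subunit that defines the non-canonical BAF complex, a chromatin remodeller, and degraders of the dBRD9 type act on the protein. The level of the Brd9 transcript therefore does not show how much protein was lost.

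The libraries held 25.8, 24.9 and 21 M (mega) counts in Dex + dBRD9 + LPS and 22.1, 23.5 and 22.5 M in dBRD9 + LPS. All 12 macrophage markers had reads, and their summed level was 25794 to 28724 CPM in Dex + dBRD9 + LPS and 15362 to 15893 CPM in dBRD9 + LPS. CPM here are counts per M of the library total after TMM scaling. Of these markers 7 rose, among them Lyz2 (log2 fold change 1.27), Fcgr3 (1.13), Cd14 (0.98) and Adgre1 (0.90), and 4 fell, among them Fcgr1 (-1.18). Neutrophil markers summed to 13 to 15 CPM with Dex and 19.5 to 22 CPM without it, and Elane, Mpo and Retnlg had no reads in either group. T and NK cell markers summed to 1.3 to 1.93 CPM with Dex and 4.07 to 5.99 CPM without it, with no reads of Cd3e, Cd3g, Trac, Cd8a, Ncr1 or Gzma. Dendritic cell markers reached at most 6.48 CPM with Dex and 9.08 CPM without it. Stromal markers reached 17.2 CPM with Dex and 12.1 CPM without it, and B cell markers 0.41 CPM with Dex and 0.479 CPM without it. Of the 4 dendritic cell markers tested 3 fell and Flt3 rose, at 2.54 to 3.79 CPM with Dex. The part of these shifts in the results was not tested, and in bulk RNA fewer cells of a type and less RNA per cell cannot be told apart. Replicate 1 of Dex + dBRD9 + LPS stood apart from its group, with a chi-square per degree of freedom of 12.4 and 12.8 to the other replicates, against 2.8 between those. Its deviations from the group mean correlated with transcript length across 7368 genes at rho = -0.524, and those of the other replicates at 0.327 and 0.439. The same correlation was -0.336 for replicate 1 of dBRD9 + LPS and -0.685 for replicate 1 of Dex + LPS. Without replicate 1 of Dex + dBRD9 + LPS, the 86 counts of list members called higher or lower with Dex in the presence of dBRD9 changed by at most 2, and 54 of them were equal.

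Dex changed most of the measured transcriptome of dBRD9-treated macrophages. Of 12662 genes tested 3680 were higher (29.1%) and 3384 lower (26.7%) in Dex + dBRD9 + LPS than in dBRD9 + LPS at a Benjamini-Hochberg adjusted p under 0.05 in edgeR's quasi-likelihood test. Of these 737 (5.82% of genes tested) were higher and 1041 (8.22%) lower by at least 2-fold. A positive log2 fold change means a higher level with Dex. The libraries of the groups did not overlap for 7899 genes (62.4%). The median log2 fold change over all genes was 0.03. Without replicate 1 of Dex + dBRD9 + LPS the calls were 3413 higher and 3208 lower. Scaling by library totals alone gave 4621 higher and 2773 lower, which shifted the median from 0.03 to 0.12, and none of the 6453 genes called under both scalings changed direction.

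Brd9 itself did not pass the test, with 38.5, 34.0 and 34.5 CPM in Dex + dBRD9 + LPS and 34.2, 36.8 and 35.3 CPM in dBRD9 + LPS (log2 fold change 0.01, SE 0.062, adjusted p = 0.90). The groups overlapped. Nr3c1, the receptor gene, had 116, 131 and 141 CPM with Dex and 137, 147 and 141 CPM without it (log2 fold change -0.13, adjusted p = 0.29). Of 18 tested genes for the receptor and its chaperones, transporters and co-regulators 4 rose and 7 fell, with a median of -0.17. These shares are 22.2% and 38.9%, against 29.1% and 26.7% of all genes. The chaperone genes Hsp90aa1 (-0.86) and Hsp90ab1 (-0.39) fell, and the coactivator gene Ncoa2 (0.65) rose.

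Genes known to be induced by the receptor were raised with dBRD9 present. Of 33 tested members 26 rose and 5 fell (78.8% and 15.2%, against 29.1% and 26.7% of all genes), and the median log2 fold change was 1.43. Tsc22d3 encodes GILZ, a leucine zipper protein that restrains NF-κB and AP-1, and lies on chromosome X (140539528 to 140600659, minus strand, mm10). It had 150, 166 and 145 CPM in Dex + dBRD9 + LPS and 2.88, 2.78 and 2.75 CPM in dBRD9 + LPS. That is a 54.6-fold difference (log2 fold change 5.77, SE 0.11, adjusted p = 2.8e-21) with no overlap. Fkbp5, a co-chaperone that lowers the receptor's affinity for its ligand, had 522, 534 and 522 CPM with Dex and 34.4, 29.8 and 30.8 CPM without it (log2 fold change 4.06, SE 0.06). Per1, a repressor of the circadian clock, had 89.7, 88.1 and 90.6 CPM with Dex and 13, 13.3 and 13.7 CPM without it (2.74, SE 0.066). Dusp1, a phosphatase that switches off p38 and JNK kinases, had 658, 606 and 620 CPM with Dex and 84.5, 81.5 and 76.8 CPM without it (2.96, SE 0.05). The Dex libraries lay far above the others for each of these genes, and replicates within a group lay close together. Lcn2, an iron-sequestering protein, had 426, 393 and 387 CPM with Dex and 28.8, 22.8 and 28.1 CPM without it (3.92, SE 0.10).

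The 5 members that fell include Zfp36, whose protein binds and destabilises inflammatory transcripts. It had 790, 647 and 616 CPM in Dex + dBRD9 + LPS and 1074, 1055 and 1034 CPM in dBRD9 + LPS (log2 fold change -0.62, SE 0.066, adjusted p = 3.5e-08). Rgs2, a brake on G protein signalling, had 6.86, 6.07 and 5.14 CPM with Dex and 84.3, 94.4 and 90.1 CPM without it (-3.88, SE 0.13). Neither gene's libraries overlapped. The others were Anxa1 (-1.01), a formyl peptide receptor ligand, Errfi1 (-3.24), an inhibitor of EGF receptors, and Angptl4 (-2.54, adjusted p = 0.046), which reached at most 0.383 CPM in any of the 6 libraries. Errfi1 and Angptl4 were singled out after their values were seen.

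**Figure D1:**
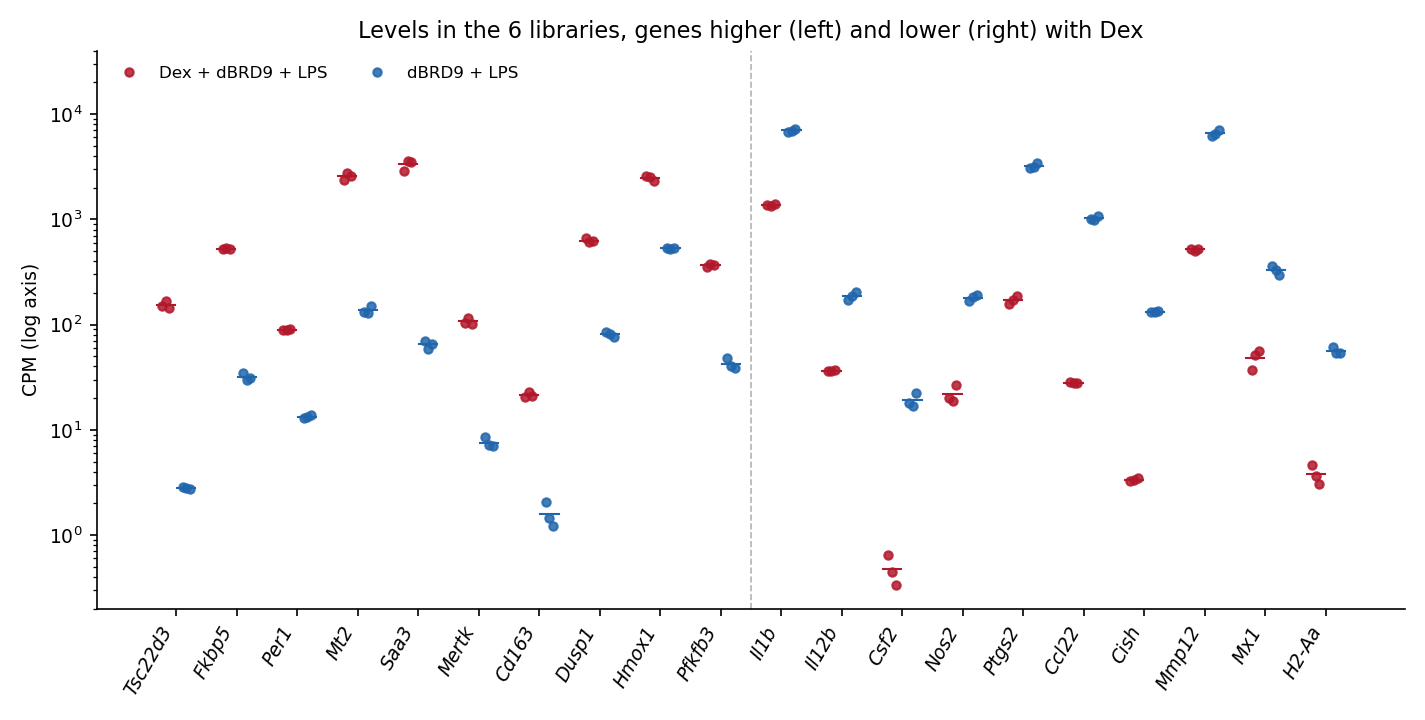
Levels of 20 genes in the 6 libraries, in CPM on a log axis, with each point a library and each line a group mean, Dex + dBRD9 + LPS left in red and dBRD9 + LPS right in blue. The left panel holds 10 genes that were higher with Dex, such as Tsc22d3 and Saa3, and the right panel 10 that were lower, such as Il1b and Ptgs2, and in no gene did the groups overlap.

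The plot of CPM by library shows a spread between replicates that was small beside the distance between groups. The genes drawn were chosen from those named, so this follows in part from the choice. Of all genes tested 62.4% had no overlap. The genes drawn include zinc-binding, clearance, cytokine and antigen presentation genes described below.

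Promoter sequences are shown for genes with large changes whose windows hold motifs of the factors named above, since these give the letters near the start sites that the changes concern. Each window holds 250 bases before and 50 bases from the RefSeq start site on (GRCm38.p6), and capitals mark matches of the motif for which the gene was chosen. The motifs searched on both strands were GNACA, any 3 bases and TGTNC for the glucocorticoid response element, GAAA, any 2 bases and GAAA for the interferon-stimulated response element, GGG, any 2 bases and TTTCC for NF-κB and TGANTCA for AP-1. Among 9351 promoters matched to the 11581 protein-coding genes tested (80.7%), they were found in 0.278%, 4.01%, 2.09% and 6.44%. Matches of different motifs overlapped in 2 promoters, always NF-κB with the interferon element. Mt1 at chr8:94178839-94179138 (plus strand) held the glucocorticoid element beginning 94 bases before the start site, and Mt2 at chr8:94172368-94172667 (plus strand) an AP-1 match 79 bases before it. Jaml at chr9:45078933-45079232 (plus strand) held the interferon element on the minus strand 36 bases before the start site. Ms4a4a at chr19:11375238-11375537 (plus strand) held an NF-κB match 247 bases before it. Ifit3 at chr19:34583279-34583578 (plus strand), an interferon-stimulated gene that fell and was added after its values were seen, held 2 interferon elements, the farther one 156 bases before the start site. Its window also holds an AP-1 match, left in lower case.
Mt1: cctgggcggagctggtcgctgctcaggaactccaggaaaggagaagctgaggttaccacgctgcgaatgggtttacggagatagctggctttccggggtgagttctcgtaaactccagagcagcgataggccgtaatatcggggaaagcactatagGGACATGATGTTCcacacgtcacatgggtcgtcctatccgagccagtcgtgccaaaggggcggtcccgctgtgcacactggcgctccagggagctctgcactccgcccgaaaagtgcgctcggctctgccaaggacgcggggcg
Mt2: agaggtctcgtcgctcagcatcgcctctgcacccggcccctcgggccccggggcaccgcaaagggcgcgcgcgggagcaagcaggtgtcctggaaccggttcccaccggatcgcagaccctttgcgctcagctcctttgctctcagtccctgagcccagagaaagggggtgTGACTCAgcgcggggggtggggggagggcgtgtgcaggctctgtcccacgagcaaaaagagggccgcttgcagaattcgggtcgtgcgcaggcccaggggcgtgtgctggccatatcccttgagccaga
Jaml: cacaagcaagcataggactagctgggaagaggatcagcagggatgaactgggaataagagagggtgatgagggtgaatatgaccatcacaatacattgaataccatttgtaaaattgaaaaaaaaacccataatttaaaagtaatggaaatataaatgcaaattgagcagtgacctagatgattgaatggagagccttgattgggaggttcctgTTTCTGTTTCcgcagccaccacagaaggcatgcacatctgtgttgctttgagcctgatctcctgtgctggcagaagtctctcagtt
Ms4a4a: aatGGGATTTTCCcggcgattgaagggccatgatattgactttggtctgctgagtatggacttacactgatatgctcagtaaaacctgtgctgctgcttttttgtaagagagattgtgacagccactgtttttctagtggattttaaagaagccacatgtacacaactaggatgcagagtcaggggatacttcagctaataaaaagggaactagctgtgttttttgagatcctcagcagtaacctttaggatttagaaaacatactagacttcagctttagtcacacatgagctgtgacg
Ifit3: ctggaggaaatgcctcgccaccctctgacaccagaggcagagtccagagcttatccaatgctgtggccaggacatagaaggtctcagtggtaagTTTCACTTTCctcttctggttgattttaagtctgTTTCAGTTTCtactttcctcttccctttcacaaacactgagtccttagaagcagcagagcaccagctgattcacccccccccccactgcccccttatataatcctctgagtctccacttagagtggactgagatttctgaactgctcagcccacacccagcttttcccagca
The glucocorticoid element was found in 4 of 534 promoters of genes raised at least 2-fold (0.749%, 95% interval 0.292% to 1.91%). Of 655 such protein-coding genes 81.5% had a promoter. The same element was found in 3 of 29 promoters of the glucocorticoid-induced list (10.3%). AP-1 matches were found in 10.3%, interferon elements in 4.31% and NF-κB matches in 2.43% of the same 534 promoters. For genes lowered at least 2-fold only 76.9% had a promoter, so their shares are void. A match is a run of letters and does not show binding.

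The genes of these windows moved by large factors. Mt1 and Mt2 encode metallothioneins, small zinc-binding proteins. Mt1 had 1666, 1803 and 1633 CPM in Dex + dBRD9 + LPS and 194, 191 and 212 CPM in dBRD9 + LPS (log2 fold change 3.09, SE 0.066, adjusted p = 2.4e-20). Mt2 had 2391, 2728 and 2557 CPM with Dex and 131, 128 and 151 CPM without it (4.23, SE 0.076). Neither gene's groups overlapped, which naming by rank required for Mt2. Jaml, a junctional adhesion molecule of leukocytes, had the highest log2 fold change of the genes that meet the naming rule, at 26.6, 26.8 and 21.7 CPM with Dex and 0.24, 0 and 0.435 CPM without it (6.79, SE 0.25, 1799 reads against 14). Ms4a4a, a membrane-spanning protein of macrophages, had 172, 234 and 210 CPM with Dex and 4.31, 3.83 and 3.43 CPM without it (5.73, SE 0.25). Both were almost absent without Dex.

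Other genes among the 12 with the highest log2 fold changes encode acute phase, adhesion and enzyme proteins. Saa3, an acute phase serum amyloid A made by macrophages, had 2894, 3603 and 3485 CPM in Dex + dBRD9 + LPS and 69.9, 58.6 and 65.7 CPM in dBRD9 + LPS (log2 fold change 5.68, SE 0.09, adjusted p = 2.8e-22). Hp, the gene for the haemoglobin-binding protein haptoglobin, had 45.3, 38.7 and 43.7 CPM with Dex and 0.958, 1.00 and 1.21 CPM without it (5.33, SE 0.21). Tns1, a focal adhesion protein, had 509, 570 and 509 CPM with Dex and 10.7, 10.4 and 9.62 CPM without it (5.69, SE 0.12). None of these overlapped between groups, which naming by rank required. The remaining names were Klhl6 (5.56), a ubiquitin ligase adaptor, Prss16 (5.22), a serine protease, Sult1a1 (4.74), a sulfotransferase, F13a1 (4.45), the coagulation factor XIII A chain, and Gpr141 (4.23), an orphan receptor.

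The 12 genes with the lowest log2 fold changes encode mostly cytokines, surface proteins and signalling inhibitors. Lrrc32, which encodes GARP, a surface dock for latent TGF-β, had 1.84, 2.34 and 2.45 CPM in Dex + dBRD9 + LPS and 104, 120 and 116 CPM in dBRD9 + LPS (log2 fold change -5.69, SE 0.16, adjusted p = 2.6e-18). Tnfsf4, the costimulatory OX40 ligand, had 8.82, 8.45 and 7.78 CPM with Dex and 187, 195 and 202 CPM without it (-4.54, SE 0.079). Hbegf, a growth factor that binds the EGF receptor, had 1.46, 1.11 and 0.624 CPM with Dex and 21.5, 21 and 23 CPM without it (-4.32, SE 0.15). No Dex library came near the others for these genes, and naming by rank required that the groups did not overlap. Serpinb9b (-4.62), a serpin gene, Car2 (-4.52), a carbonic anhydrase, Cd200 (-4.47), an inhibitory surface ligand, and Lat (-4.29), an adaptor of immune receptors, also fell, and the others of the 12 are described with their groups.

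Of 21 tested genes for scavenging and uptake of dead cells 8 rose and 6 fell (38.1% and 28.6%), close to the shares of all genes (29.1% and 26.7%), with a median of -0.03. Cd163, the haemoglobin scavenger receptor, had 20.4, 23.1 and 21 CPM in Dex + dBRD9 + LPS and 2.06, 1.46 and 1.21 CPM in dBRD9 + LPS (log2 fold change 3.76, SE 0.17). Mertk, a receptor kinase for apoptotic cells, had 104, 116 and 102 CPM with Dex and 8.48, 7.12 and 7.10 CPM without it (3.82, SE 0.10). Axl, a kinase of the same family, had 32.2, 32.2 and 33.1 CPM with Dex and 109, 107 and 107 CPM without it (-1.73, SE 0.068). Mertk and Axl thus moved in opposite directions, each without overlap. The complement genes C1qa (1.87), C1qb (1.65) and C1qc (1.36) and the scavenger receptor gene Marco (1.73) rose.

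Inflammatory cytokines were mostly lower with Dex. Of 25 tested members 20 fell and 3 rose (80% and 12%), and the median was -0.95. Il1b, a fever-inducing cytokine, had 1369, 1352 and 1407 CPM in Dex + dBRD9 + LPS and 6771, 6912 and 7284 CPM in dBRD9 + LPS (log2 fold change -2.34, SE 0.056, adjusted p = 1.6e-19). Il12b, the p40 chain of interleukins that drive T helper cells, had 35.9, 36.1 and 36.9 CPM with Dex and 170, 189 and 205 CPM without it (-2.37, SE 0.074). Csf2, the gene for GM-CSF, had 0.652, 0.451 and 0.336 CPM with Dex and 18.1, 16.9 and 22.5 CPM without it (-5.27, SE 0.20). All 3 were on average over 5-fold lower with Dex, with no overlap, which naming by rank required for Csf2. Tnf had 4165, 4397 and 4326 CPM with Dex and 7036, 6953 and 7390 CPM without it (-0.73, SE 0.045), and Il6 had 167, 164 and 169 CPM with Dex and 212, 206 and 233 CPM without it (-0.38, SE 0.08). These falls were small, and the groups still did not overlap. Il10, an anti-inflammatory cytokine gene, had 0.345, 0.615 and 0.192 CPM with Dex and 3.88, 4.93 and 4.54 CPM without it (-3.49, SE 0.34). Il1a (-3.41), Tnfsf15 (-4.08), Inhba (-5.27), Il23a (-3.14) and Osm (-2.69) also fell. The 3 that rose were Csf3 (2.53), the gene for G-CSF, Tnfsf9 (1.19) and Ebi3 (0.30), of which Csf3 and Ebi3 were named after their values were seen. Il1bos, an antisense transcript at Il1b, fell by 4.47 on the log2 scale. No source used here gives the strand setting of the counting, so its reads and those of Il1b cannot be told apart.

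Chemokines followed the same direction, with 20 of 23 tested members lower and 1 higher (87.0% and 4.35%) and a median of -0.88. Ccl22, which attracts CCR4-bearing T cells, had 28.8, 27.9 and 27.6 CPM in Dex + dBRD9 + LPS and 1016, 992 and 1080 CPM in dBRD9 + LPS (log2 fold change -5.19, SE 0.12). Ccl17, a ligand of the same receptor, had 10.5, 9.27 and 8.98 CPM with Dex and 52.4, 50.5 and 68.0 CPM without it (-2.56, SE 0.16). Ccl2, which attracts monocytes, had 353, 347 and 339 CPM with Dex and 558, 557 and 626 CPM without it (-0.74, SE 0.075). The fall was thus far deeper for the CCR4 ligands than for Ccl2. Cxcl3 (-2.56), Cxcl14 (-2.59) and Ccl4 (-1.91) fell, and Cxcl10, an interferon-induced chemokine, had 199, 220 and 235 CPM with Dex and 494, 454 and 518 CPM without it (-1.16, SE 0.091). The member called higher was Ccl8 (1.46, SE 0.59), named after its values were seen, which reached at most 0.384 CPM in any of the 6 libraries and whose adjusted p lay just under 0.05.

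Among enzymes of prostaglandins, nitric oxide and itaconate 10 of 15 fell and 4 rose (66.7% and 26.7%, against 26.7% and 29.1% of all genes). Ptgs2, the inducible cyclooxygenase COX-2, had 156, 170 and 187 CPM in Dex + dBRD9 + LPS and 3098, 3171 and 3421 CPM in dBRD9 + LPS (log2 fold change -4.24, SE 0.12, adjusted p = 1.4e-18). Nos2, the inducible nitric oxide synthase, had 20.0, 18.7 and 26.7 CPM with Dex and 167, 181 and 190 CPM without it (-3.05, SE 0.10). Both were lower in every Dex library. Hpgds (-1.23), Slc7a2 (-1.15) and Ass1 (-1.04) fell, and Ptges2 (0.77) rose.

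Sensing and signalling genes moved less uniformly, to be read against 29.1% of all genes higher and 26.7% lower. Of 21 Toll-like receptor and adaptor genes 14 rose and 3 fell (66.7% and 14.3%), and the median was 0.25. Tlr13, which senses bacterial ribosomal RNA in mice, had 287, 299 and 314 CPM in Dex + dBRD9 + LPS and 83.6, 81.0 and 79.7 CPM in dBRD9 + LPS (log2 fold change 1.88, SE 0.067). Irak3, an inhibitory kinase-like protein of the pathway, had 233, 226 and 231 CPM with Dex and 83.7, 83.5 and 89.5 CPM without it (1.43, SE 0.047). These did not overlap, and Tlr9 (1.65), Tlr8 (1.09) and the LPS co-receptor genes Cd14 (0.98) and Ly96 (0.96) rose as well. Without replicate 1 of Dex + dBRD9 + LPS, and likewise under library totals alone, only 1 of the list fell. Of 20 NF-κB subunit and feedback genes 6 rose and 8 fell (30% and 40%), with a median of -0.07. Examples were Nfkbid (-1.01), Rel (-0.66), Ikbke (0.54) and Birc3 (0.39). All 19 immediate early transcription factor genes were called, 7 higher and 12 lower. Among them Atf3, a stress-induced repressor, had 128, 123 and 127 CPM with Dex and 729, 702 and 735 CPM without it (-2.52, SE 0.052), and Jun, an AP-1 subunit, had 91.0, 78.7 and 89.3 CPM with Dex and 19.7, 20.1 and 22.3 CPM without it (2.06, SE 0.085). AP-1 and ATF members thus went in both directions. Of 17 JAK-STAT genes 10 fell and 4 rose, with Cish, a feedback inhibitor of STAT5, at 3.26, 3.32 and 3.46 CPM with Dex and 131, 133 and 135 CPM without it (-5.31, SE 0.11). Socs1 (-2.59), Stat5a (-1.75) and Stat2 (-1.56) fell. Of 12 MAP kinase phosphatase genes 2 rose, Dusp1 and Dusp2 (1.05), and 6 fell.

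The type I interferon programme was lower with Dex, to be read against 26.7% of all genes lower and 29.1% higher. Ifnb1, the interferon-beta gene, had 0.23, 0.041 and 0.048 CPM in Dex + dBRD9 + LPS and 2.78, 2.42 and 3.33 CPM in dBRD9 + LPS (log2 fold change -4.60, SE 0.42, 8 reads against 180). Of 54 interferon-stimulated genes 49 fell and 2 rose (90.7% and 3.70%), and the median was -1.15. Mx1, an antiviral GTPase gene, had 36.8, 51.9 and 56.1 CPM with Dex and 358, 330 and 297 CPM without it (-2.77, SE 0.14). Ifit3, whose promoter is shown above, had 26.6, 30.6 and 38.5 CPM with Dex and 172, 137 and 149 CPM without it (-2.26, SE 0.19). Groups did not overlap for either gene, and replicate 1 had the lowest level of the Dex libraries in both. Ifit3 and Ifit3b (-2.22) are near-identical copies, and no source used here says how their shared reads were counted. Mx2 (-2.45), Ifit2 (-2.35) and Oasl1 (-2.22) fell. The 2 that rose were Ifitm6 (0.64) and Ifi204 (0.30), named after their values were seen. Without replicate 1 of Dex + dBRD9 + LPS 50 fell and 2 rose. Of 14 interferon-inducible GTPase genes 13 fell and none rose at a median of -1.46, with Ifi47 (-1.72) and Gbp9 (-1.68) as examples. No identifier was matched to Gbp5, Gbp6 or Gbp10, which were not analysed here. Among 17 genes for interferon-beta, its receptors and regulators 10 fell and 6 rose, with Irf4 (-3.33), Irf7 (-1.22) and Irf8 (-1.34) lower and Ifngr1 (1.13), a chain of the IFNγ receptor, higher.

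Genes of MHC class II and class I presentation mostly fell, while 26.7% of all genes fell and 29.1% rose. Of 11 tested MHC class II genes 9 fell and none rose, with a median of -1.27. H2-Aa, a class II alpha chain, had 4.64, 3.61 and 3.07 CPM in Dex + dBRD9 + LPS and 61.6, 54.0 and 53.8 CPM in dBRD9 + LPS (log2 fold change -3.89, SE 0.14, adjusted p = 2.9e-16). Ciita, the master regulator of these genes, had 1.11, 1.56 and 1.01 CPM with Dex and 17.5, 18.2 and 16.5 CPM without it (-3.81, SE 0.16). Cd74, the invariant chain, had 97.1, 91.2 and 94.7 CPM with Dex and 927, 902 and 938 CPM without it (-3.29, SE 0.10). The groups did not overlap for any of these. Of 20 class I and immunoproteasome genes 18 fell and none rose at a smaller median of -0.46, led by Nlrc5 (-1.16), the class I regulator, and Tap1 (-1.01). Of 13 tested costimulation genes 7 fell and 3 rose (53.8% and 23.1%), with a median of -0.30. Cd40 (-1.23), Cd274 (-1.53) and Tnfsf4 (-4.54) fell, and Icosl (2.19) rose.

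Matrix protease and lipid genes also changed, to be read against 29.1% of all genes higher and 26.7% lower. Of 16 tested matrix proteases and inhibitors 10 fell and 5 rose, with a median of -1.23. Mmp12, macrophage elastase, had 526, 505 and 527 CPM in Dex + dBRD9 + LPS and 6201, 6516 and 7024 CPM in dBRD9 + LPS (log2 fold change -3.66, SE 0.082). Mmp8, a neutrophil-type collagenase, had 31.5, 32.2 and 38.5 CPM with Dex and 2.59, 3.33 and 2.32 CPM without it (3.62, SE 0.13). These proteases went in opposite directions without overlap, and Mmp13 (-3.01), Mmp9 (-3.02) and Timp1 (-3.39) fell. Of 24 cholesterol synthesis genes 21 fell and none rose (87.5% and 0%), with a median of -1.38. Cyp51, a sterol demethylase, had 31.7, 33.9 and 36.8 CPM with Dex and 165, 170 and 193 CPM without it (-2.37, SE 0.077). Hsd17b7 (-2.41), Idi1 (-2.23) and Sqle (-2.05) fell as well. Liver X receptor targets were mixed, 8 of 15 higher and 5 lower, and Apoe, the lipid carrier, had 5221, 5672 and 5426 CPM with Dex and 1893, 1601 and 1616 CPM without it (1.68, SE 0.072).

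Genes of protein folding mostly rose and those of the cell cycle mostly fell, while 29.1% of all genes were higher and 26.7% lower. Of 23 unfolded protein and integrated stress response genes 15 rose and 3 fell (65.2% and 13%), with a median of 0.74. Dnajb9, a co-chaperone of the endoplasmic reticulum, had 55.5, 61.3 and 61.2 CPM in Dex + dBRD9 + LPS and 17.3, 14.6 and 18.4 CPM in dBRD9 + LPS (log2 fold change 1.82, SE 0.079). Creld2 (1.35), Pdia4 (1.35), Manf (1.21) and Herpud1 (1.20) rose, and Psat1 (-1.76), an enzyme of serine synthesis, fell. Of 38 cell cycle and DNA replication genes 30 fell and 2 rose (78.9% and 5.26%), with a median of -0.80. Rrm2, a subunit of ribonucleotide reductase, had 2.99, 2.46 and 2.11 CPM with Dex and 11.2, 11.7 and 11.8 CPM without it (-2.18, SE 0.15). E2f8 (-2.07), Ccnd1 (-1.50) and Mcm7 (-1.23) fell. Among 26 glycolysis genes 5 rose and 13 fell, and Pfkfb3, whose product makes an activator of glycolysis, had 354, 380 and 365 CPM with Dex and 48.5, 40.5 and 38.7 CPM without it (3.11, SE 0.10). Of 29 oxidative phosphorylation genes 12 fell and none rose at a median of only -0.15, and under library totals alone 7 fell and 4 rose. The 14 tested non-canonical BAF subunit genes gave 5 higher and 4 lower calls (35.7% and 28.6%), near the shares of all genes, with a median of 0.04. Those named ranged from Bcl7c (-0.55) to Smarca2 (0.60). Other subunits of BAF and PBAF complexes gave 4 higher and 2 lower calls of 12 (33.3% and 16.7%).

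Other lists had calls in both directions, to be read against 29.1% of all genes higher and 26.7% lower. Of 12 tested genes of alternative activation 8 fell and 3 rose, with a median of -0.68. Clec7a, the receptor of fungal glucans, had 20.0, 21.2 and 20.2 CPM in Dex + dBRD9 + LPS and 168, 158 and 164 CPM in dBRD9 + LPS (log2 fold change -3.00, SE 0.059), and Chil3 (2.75), a chitinase-like protein, and Mrc1 (0.94), the mannose receptor, rose. Of 18 motility and formyl peptide receptor genes 10 fell and 8 rose, among them Ccr1 (-1.58) and C5ar1 (0.91). Circadian clock genes gave 7 higher and 8 lower calls of 17, with Bhlhe40 (-3.97) and Cry1 (1.20) as examples. Of 13 genes that control decay of inflammatory transcripts 5 fell and 3 rose, with Btg1 at 243, 222 and 215 CPM with Dex and 760, 771 and 793 CPM without it (-1.77, SE 0.053). Of 18 cell cycle inhibitor and p53 target genes 7 rose and 4 fell, with Trp53inp1 (2.42) and Cdkn1a (-0.78), the p21 gene, at the ends. Lysosomal genes gave 10 higher and 12 lower calls of 30, from Lipa (-0.77) to Ctsh (0.83) among those named. Complement and coagulation genes gave 6 higher and 4 lower calls of 14, and F3, tissue factor, fell (-3.31). Of 14 BET and P-TEFb genes 5 rose and 1 fell, with Brd3 (0.64) among the higher ones.

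**Figure D2:**
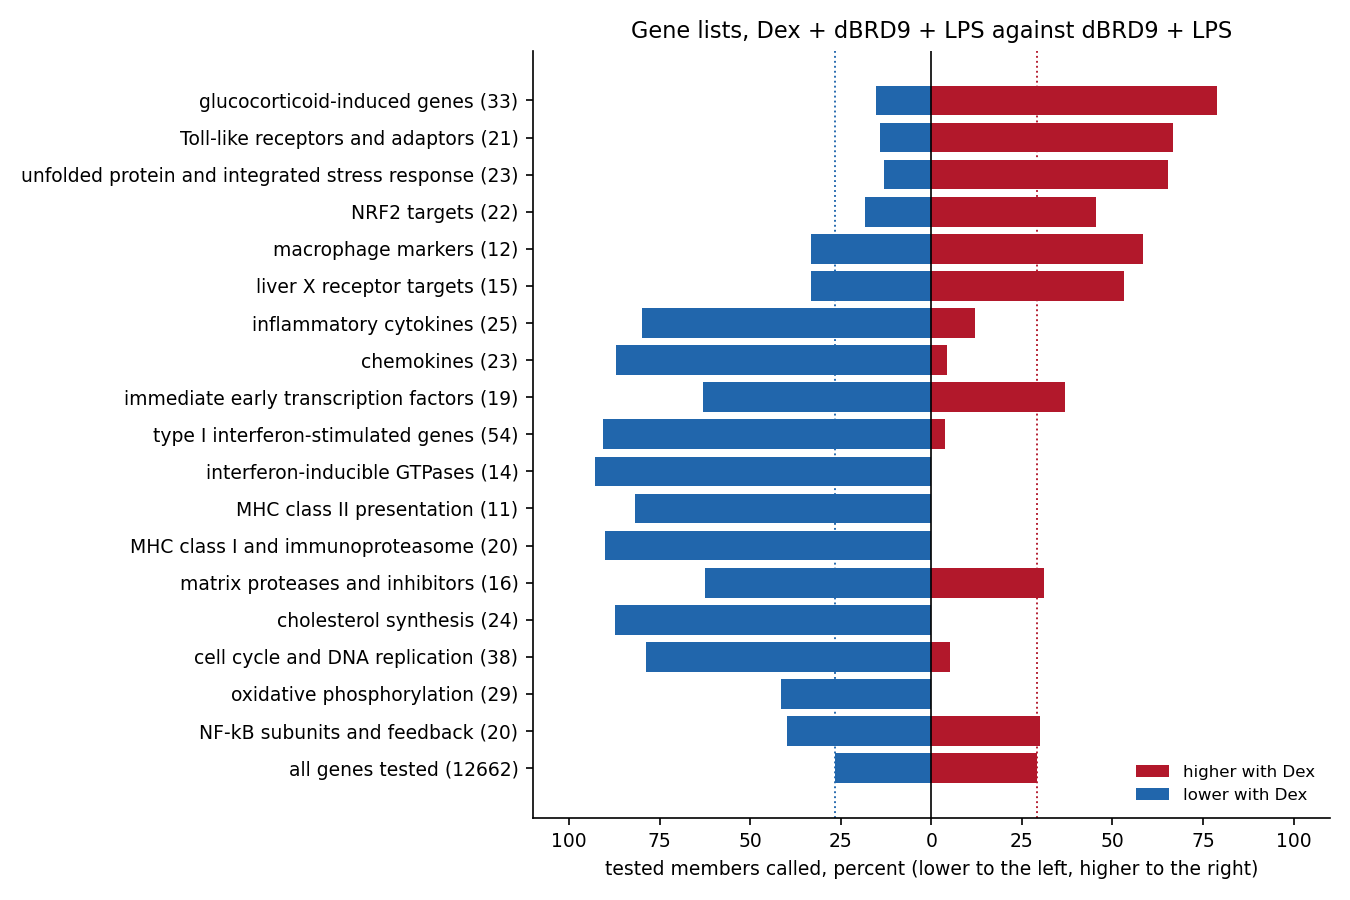
Percent of the tested members of 18 gene lists, and of all genes, called higher (right, red) or lower (left, blue) in Dex + dBRD9 + LPS against dBRD9 + LPS at an adjusted p under 0.05. Dotted lines mark the shares of all genes, 29.1% higher and 26.7% lower, and lists such as cholesterol synthesis, with 87.5% lower, lie far from them.

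The plot of shares by list shows glucocorticoid-induced, protein folding and Toll-like receptor genes with mostly higher calls, and interferon, presentation, cytokine, chemokine, cholesterol and cell cycle genes with mostly lower calls.

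Of genes that LPS itself had raised at least 2-fold, about 1 in 2 were lowered by Dex in the presence of dBRD9. The classes came from LPS against vehicle, libraries that the comparison of Dex did not use, where 1872 genes rose (14.8%) and 2300 fell (18.2%) by at least 2-fold. Of the raised genes 950 fell and 391 rose with Dex in the presence of dBRD9 (50.7% and 20.9%), and their median was -0.29. Of the lowered genes 384 fell and 796 rose (16.7% and 34.6%), with a median of 0.24. Without replicate 1 of Dex + dBRD9 + LPS 896 fell and 378 rose of the raised genes, and 330 fell and 736 rose of the lowered ones. The 8490 genes of neither class had 24.1% lower and 29.4% higher calls and a median of 0.03. TMM factors differed strongly between vehicle and other libraries. With LPS classes set by library totals alone, a choice made after the data were seen, 666 of 1230 raised genes fell (54.1%) and 253 rose (20.6%), and of 4042 lowered genes 703 fell (17.4%) and 1408 rose (34.8%).

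Without a BRD9 compound most of these genes moved the same way. That comparison shares no library with the 6 described so far. Dex + LPS against LPS gave 3531 higher (27.9%) and 3485 lower (27.5%) calls. Of the 7064 genes called with dBRD9 5674 were called in the same direction without it, which is 80.3% of those with dBRD9 and 80.9% of the 7016 without, and 30 were called in opposite directions. These counts were 5326 and 27 without replicate 1 of Dex + dBRD9 + LPS. Log2 fold changes of both correlated across the 12662 genes at r = 0.876 (rho = 0.84), where genes are not independent replicates. Of genes raised at least 2-fold with dBRD9 625 of 737 (84.8%) were also called higher without it, and of those lowered 960 of 1041 (92.2%) also called lower. Medians with dBRD9 and without a compound were 1.43 and 1.53 for glucocorticoid-induced genes, -0.95 and -1.33 for cytokines, -1.15 and -1.56 for interferon-stimulated genes and -1.38 and -1.32 for cholesterol synthesis. Dusp1 changed by 2.96 with dBRD9 and 2.88 without a compound, and the 95% interval of the difference was -0.07 to 0.22. For Tsc22d3, at 5.77 with dBRD9 and 6.33 without, that interval was -0.95 to -0.17 and its adjusted p was 0.10.

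**Figure D3:**
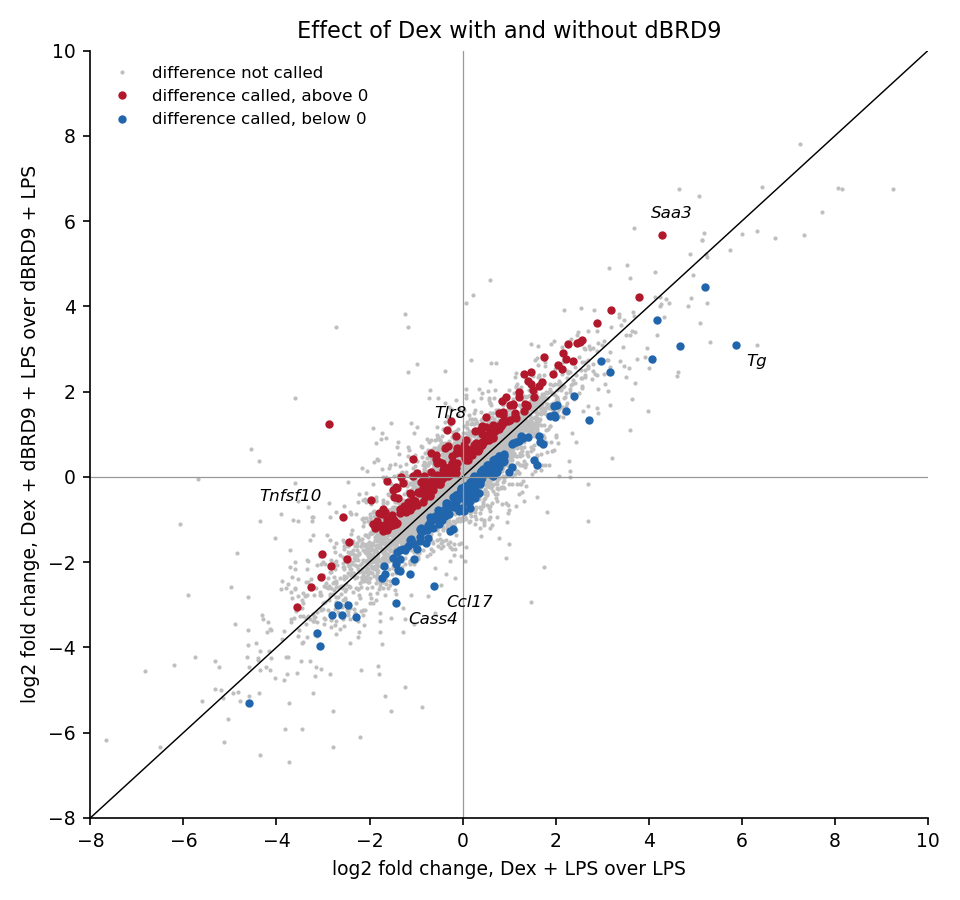
Log2 fold change of each of 12662 genes with Dex in the presence of dBRD9 (vertical axis) against that without a BRD9 compound (horizontal axis). Each point is a gene, coloured points are the 429 genes whose effects differed at an adjusted p under 0.05, and most genes lie along the diagonal.

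In the plot of both effects the coloured genes lie off the diagonal on either side and include genes with large and small effects.

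A direct test of the difference, the Dex effect with dBRD9 minus that without a BRD9 compound, called 429 genes (3.39%), 230 higher (1.82%) and 199 lower (1.57%), of which 23 higher (0.182%) and 11 lower (0.0869%) differed by at least 2-fold. The effect was larger with dBRD9 for 181 of them, smaller for 155 and of opposite sign for 93. Of those with opposite signs only 30 were called both with dBRD9 and without a BRD9 compound. The count depended on the libraries. It was 407 higher and 483 lower without replicate 1 of Dex + LPS, whose chi-square per degree of freedom to the other replicates was 42 and 44.8, and 462 and 485 when replicate 1 of Dex + dBRD9 + LPS was left out too. It was 105 higher and 106 lower when only the 4 groups compared were fitted. Without replicate 2 of Dex + dBRD9 + LPS it was 140 and 131, without replicate 1 of LPS 136 were higher, and without replicate 3 of LPS it was 144 and 122. Without replicate 3 of Dex + dBRD9 + LPS 152 were higher, and without replicate 3 of dBRD9 + LPS 151. Of 54 named genes called in this test 29 lost the call in at least 1 alternative fit.

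Among genes with larger effects in the presence of dBRD9, Saa3 stood out, at a log2 fold change of 5.68 with dBRD9 and 4.28 without it (difference 1.41, SE 0.11, adjusted p = 8.6e-08). Its level was 4101 ± 188 CPM in Dex + LPS and 211 ± 6.99 CPM in LPS (SD, n = 3 each), so it stood lower with dBRD9 in both arms. Il12b fell by 2.37 with dBRD9 and 1.73 without it on the log2 scale (difference -0.64, adjusted p = 0.0011). Ccl17 fell by 2.56 with dBRD9, and changed by -0.61 without it (difference -1.96, SE 0.23, adjusted p = 1.8e-05), with 18.9 ± 5.29 CPM in Dex + LPS and 29.1 ± 2.25 CPM in LPS. The level in dBRD9 + LPS, 50.5 to 68.0 CPM, was thus above that in LPS. Cass4, a docking protein of focal adhesions, fell by 2.96 with dBRD9 and by 1.44 without it (difference -1.51, adjusted p = 1.7e-05). Tlr8, a receptor of RNA fragments in endosomes, had 93.5, 115 and 121 CPM in Dex + dBRD9 + LPS and 54.2, 54.6 and 45.9 CPM in dBRD9 + LPS. Its effects were of opposite sign, 1.09 with dBRD9 and -0.33 without it (difference 1.42, adjusted p = 0.00062). The effect without dBRD9 was not itself called. Pfkfb3 rose by 3.11 with dBRD9 and by 2.27 without it (difference 0.83, adjusted p = 0.00085).

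Effects were smaller with dBRD9 for other genes. Nos2 changed by -3.05 with dBRD9 and by -3.55 without it (difference 0.50, SE 0.14, adjusted p = 0.044). Tnfsf10, which encodes the death ligand TRAIL, had 2.03, 3.24 and 2.93 CPM in Dex + dBRD9 + LPS and 5.99, 5.07 and 4.74 CPM in dBRD9 + LPS, with -0.95 there and -2.58 without dBRD9 (difference 1.63, adjusted p = 0.00039). Stab1, a scavenger receptor, rose by 0.39 with dBRD9 and 1.53 without it (difference -1.14, adjusted p = 3.1e-06), and was singled out after its values were seen. Cbr2, a carbonyl reductase gene, had 12.1, 10.7 and 8.41 CPM in Dex + dBRD9 + LPS and 1.49, 1.32 and 0.918 CPM in dBRD9 + LPS (3.07), against 4.68 without dBRD9 (difference -1.62, adjusted p = 0.016).

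NRF2 targets, genes of the antioxidant response, were among the lists with many differences. Of 22 members 9 had a higher effect with dBRD9 and none a lower one (40.9%, against 1.82% of all genes). Hmox1, haem oxygenase, had 2581, 2522 and 2326 CPM in Dex + dBRD9 + LPS and 538, 518 and 539 CPM in dBRD9 + LPS (2.22, against 1.71 without dBRD9, difference 0.51, adjusted p = 0.0041). Gclm, the modifier subunit of glutamate-cysteine ligase, had 301, 285 and 275 CPM with Dex and 160, 165 and 169 CPM without it (0.80, against 0.28 without dBRD9, difference 0.52, adjusted p = 0.0013). Slc7a11, the cystine transporter, had 1256, 1394 and 1515 CPM with Dex and 645, 720 and 716 CPM without it (1.00, against 0.41 without dBRD9, difference 0.59, adjusted p = 0.021). The other 6 were Gclc (0.44), Osgin1 (0.49), Keap1 (0.39), Srxn1 (0.30), G6pdx (0.34) and Cat (0.28), and Gclm, Keap1, Srxn1, G6pdx and Cat were named after their values were seen. The count fell to 3 when only the compared groups were fitted, to 3 without replicate 2 of Dex + dBRD9 + LPS, and was 12 without both libraries that stood apart. The list's median effect was 0.11 with dBRD9 and -0.03 without a compound.

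Of 54 interferon-stimulated genes 11 had a higher effect with dBRD9 (20.4%, against 1.82% of all genes), and none a lower one. For 10 of them this was a smaller fall on the log2 scale. Ifit2 changed by -2.35 with dBRD9 and -3.04 without it (difference 0.69, adjusted p = 0.03). The others, named after their values were seen, were Slfn4 (difference 1.42), Oas3 (0.86), Ddx58 (0.63), Sp100 (0.54), Ifi204 (0.52), Trim30a (0.48), Eif2ak2 (0.46), Parp12 (0.39), Mndal (0.36) and Tor3a (0.33). The count was 19 without replicate 1 of Dex + dBRD9 + LPS, 24 without replicate 1 of Dex + LPS, 37 without both and 8 when only the compared groups were fitted. A smaller fall can also come from a lower level without Dex. Ifi204, for example, had means of 188 CPM in dBRD9 + LPS and 302 CPM in LPS. With Dex its means were 231 CPM in Dex + dBRD9 + LPS and 259 CPM in Dex + LPS. The part of each arm in these differences was not tested. Of 16 matrix proteases and inhibitors 6 had a lower effect and 1 a higher one (37.5% and 6.25%, against 1.57% and 1.82% of all genes). Among them were Mmp12 at -0.54, Mmp13 at -0.53 and Mmp8 at 0.73. The 4 lower effects of 18 motility genes (22.2%) were those of Ccr1 (-0.53), C5ar1 (-0.38), C3ar1 (-0.28) and Ptafr (-0.39), the last pair named after their values were seen. Of 23 protein folding genes 0 and of 24 cholesterol synthesis genes 1, Insig1 (-0.36), were called in this test (0% and 4.17%), near the 3.39% of all genes.

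**Figure D4:**
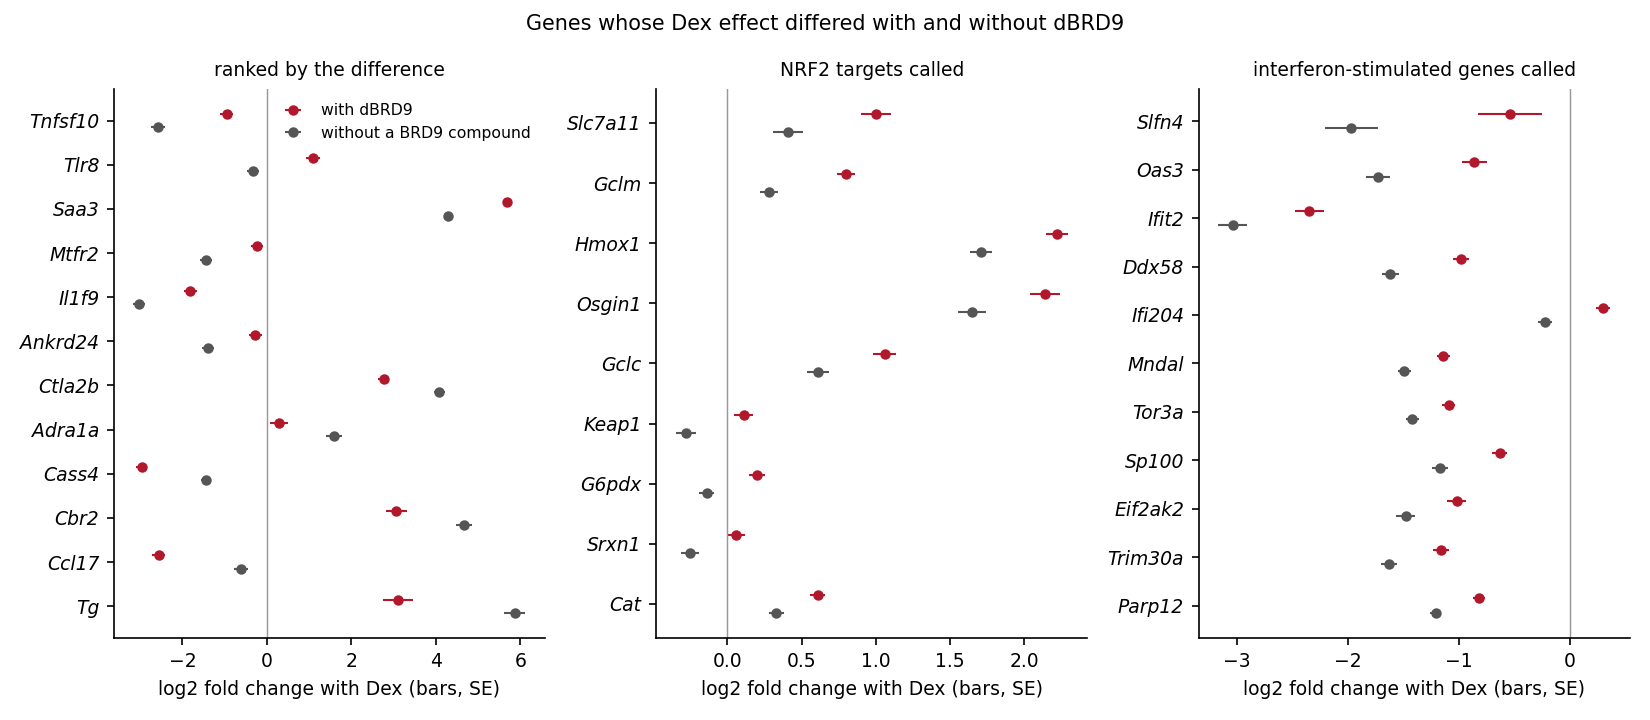
Log2 fold changes with Dex (± SE) in the presence of dBRD9 (red) and without a BRD9 compound (grey) for 12 genes named by rank, 9 NRF2 targets and 11 interferon-stimulated genes, all with differing effects. The NRF2 targets lie higher with dBRD9, as Hmox1 at 2.22 against 1.71, and so do the interferon-stimulated genes, as Ifit2 at -2.35 against -3.04.

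The plot of these genes shows that for NRF2 targets and interferon-stimulated genes the distance between the effects was small beside the effects themselves for Hmox1 or Ifit2. Keap1, Srxn1, G6pdx and Ifi204 had effects of opposite sign. Of these, G6pdx and Ifi204 alone were called both with dBRD9 and without a compound.

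With iBRD9 in place of dBRD9, Dex gave 3251 higher (25.7%) and 3050 lower (24.1%) calls. Of the genes called with dBRD9 4065 were called in the same direction with iBRD9 (57.5% of those with dBRD9 and 64.5% of those with iBRD9), and 489 in the opposite one. They were 3944 and 422 without replicate 1 of Dex + dBRD9 + LPS. Log2 fold changes correlated across genes at r = 0.617 (rho = 0.555). Of genes raised at least 2-fold with dBRD9 77.3% were also called higher with iBRD9, and of those lowered 54.7% also called lower. Medians with dBRD9 and with iBRD9 were 1.43 and 2.05 for glucocorticoid-induced genes, -1.38 and -1.07 for cholesterol synthesis, -0.95 and -0.18 for cytokines and -1.15 and 0.14 for interferon-stimulated genes. Fkbp5 changed by 4.06 with dBRD9 and 3.88 with iBRD9, Mx1 by -2.77 and 0.04, and Tnf by -0.73 and -0.08. The direct test of the Dex effect with dBRD9 minus that with iBRD9 called 3769 genes (29.8%). In it 51 of the 54 interferon-stimulated genes were lower (94.4%, against 15.5% of all genes) and none higher. In the presence of iBRD9, 24 of the 54 rose and 8 fell with Dex (44.4% and 14.8%, against 25.7% and 24.1% of all genes). Such a difference also depends on the levels without Dex. Ifi204, for example, had means of 108 CPM in iBRD9 + LPS, 188 CPM in dBRD9 + LPS and 302 CPM in LPS. The part of these levels in the difference was not tested. Since the dose of iBRD9 is not given per sample, these values stand side by side and say nothing of matched doses.

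In the second experiment, with IFNγ beside LPS, Dex + dBRD9 against dBRD9 gave 1858 higher (14.0%) and 1917 lower (14.4%) calls among 13313 genes. It had 2 libraries a group and a biological coefficient of variation between replicates of 10.6%, against 6.79% in the first experiment. Library totals alone gave 2613 higher and 1515 lower, and DESeq2 1168 higher and 1964 lower. Without replicate 1 or 2 of Dex + dBRD9 + IFNγ + LPS the calls were 1083 higher and 1180 lower or 927 higher and 1066 lower, and without replicate 2 of dBRD9 + IFNγ + LPS 1044 higher and 1254 lower. Of 11945 genes tested in both experiments 2058 were called in the same direction, which is 30.2% of those called with LPS and 59.4% of those called with IFNγ + LPS, and 403 in opposite directions. Leaving out replicate 1 of Dex + dBRD9 + LPS gave 1923 and 405. Tsc22d3 (6.27), Saa3 (5.39), Fkbp5 (4.74), Per1 (4.63) and Tns1 (4.39) were among the 6 highest there, and Il1b (-3.83), Il12b (-3.55), Lrrc32 (-3.92) and Tnfsf4 (-3.41) among the 6 lowest. The others of these were Klf2 (4.34) among the highest and Lif (-4.32) and Tnc (-3.38) among the lowest. Medians in IFNγ + LPS and in LPS, both with dBRD9, were 1.21 and 1.43 for glucocorticoid-induced genes, -1.48 and -0.95 for cytokines, -0.70 and -1.15 for interferon-stimulated genes, 0.10 and -1.27 for MHC class II and 0.23 and -1.38 for cholesterol synthesis. The experiments were fitted separately, and the difference between them was not tested.

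**Figure D5:**
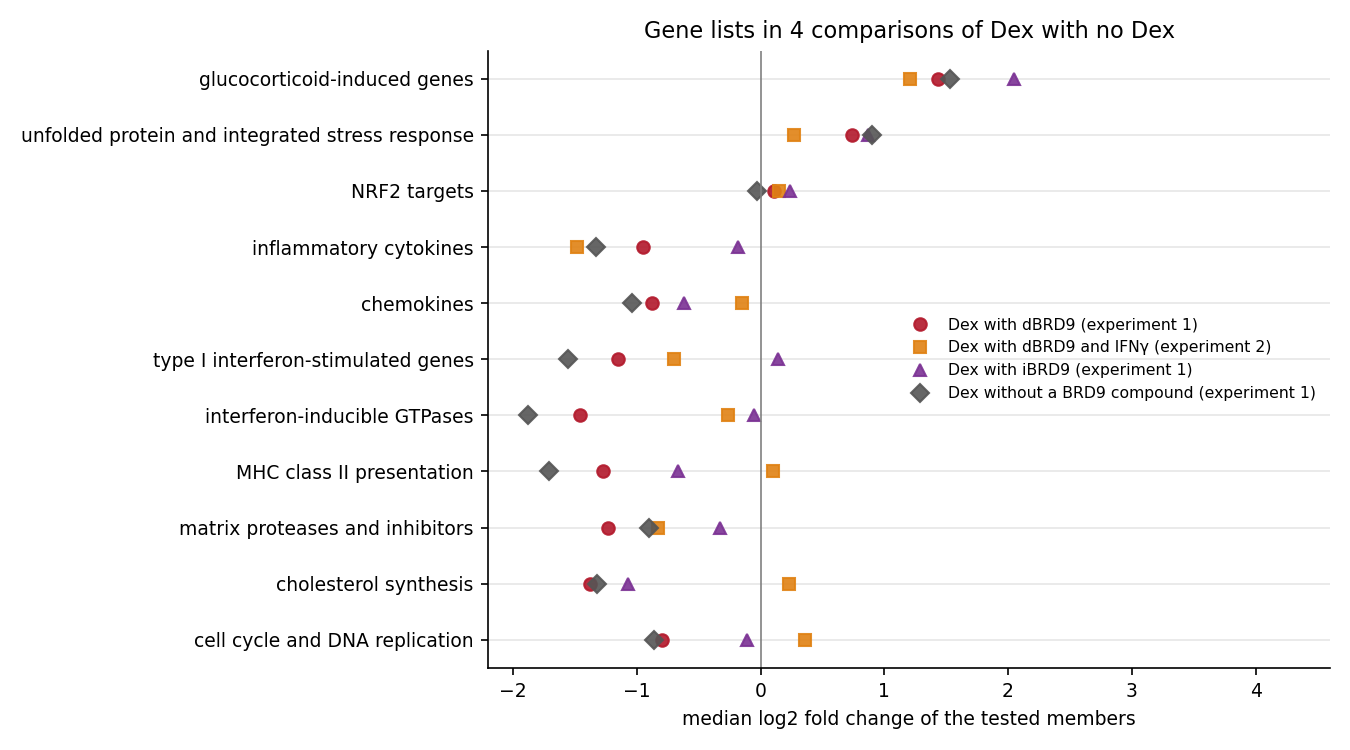
Median log2 fold change with Dex over the tested members of 11 gene lists in 4 settings: with dBRD9, with dBRD9 and IFNγ, with iBRD9, and without a BRD9 compound. Glucocorticoid-induced genes lie above 1 in all 4 settings, while cholesterol synthesis lies at -1.38 with dBRD9 and 0.23 with dBRD9 and IFNγ.

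The plot of list medians shows the same sign with dBRD9 and without a compound for each of the 11 lists drawn except NRF2 targets (0.11 and -0.03), and interferon-stimulated genes near 0 with iBRD9.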

How the data were processed

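Bulk RNA-seq libraries of mouse bone marrow-derived macrophages were compared. The authors deposited raw counts per Ensembl gene in a table for each of the 2 experiments, and every column matched a sample label. The submitters' processing notes name fastp, STAR and DESeq2 and the build mm10. No source used here gives the counting tool, annotation release or strand setting. Of 35275 identifiers in experiment 1, 34490 (97.77%) have a symbol in GENCODE M21 (mm10). Promoter windows came from RefSeq (GRCm38.p6).

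From these counts, edgeR 4.0.16 in R 4.3.3 fitted the 21 libraries of experiment 1 and the 10 of experiment 2 separately, each with all groups sharing the spread (14 and 5 residual degrees of freedom), TMM scaling and quasi-likelihood F tests. Low genes were removed with filterByExpr (a count of 10, a total of 15), so 12662 and 13313 genes were tested. Adjusted p-values are Benjamini-Hochberg over all of them. An SE is the absolute log2 fold change over the square root of F, and 95% intervals use a t distribution with 14 degrees of freedom. A difference between effects is an interaction contrast of the same model. Totals were 21 to 25.8 M counts in the 6 libraries of Dex + dBRD9 + LPS and dBRD9 + LPS.

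Members, gene lists and alternatives were chosen with earlier results of these data known. The genes named are a fixed set, the called genes with the highest and lowest log2 fold change (up to 12 each way, 6 for differences and for experiment 2) that reached 10 CPM in 1 of the groups without overlapping libraries, and up to 6 called members of each of the 43 lists at 10 CPM or more. Pseudogenes and clone names were left out, and 3 list members had no identifier. Some genes that meet the rule are not reported here.

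The alternatives were library totals alone, DESeq2 size factors, DESeq2 1.42.0, limma 3.58.1 with voom, other filters on low counts, a replicate block, a fit of the compared groups alone, and leaving out libraries. On simulated counts with 100 planted genes per fold, 77% of 1.5-fold and 95% of 2-fold changes were recovered for Dex with dBRD9, 61% and 91% for the difference with and without dBRD9, and 42% and 71% for experiment 2. Genes with the lowest counts were not planted, all other genes were left unchanged by Dex, and libraries were drawn independently. In the data 55.8% of genes were called for Dex with dBRD9 and a replicate stood apart, so recovery there may differ.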

Additional observations from a re-analysis of the deposited data

Results flagged for a closer look

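These results are listed because the effect of Dex differed between settings in a direct test of the difference. The Dex effect with dBRD9 minus that without a BRD9 compound was called for 429 genes. Among all 54 named genes called in it, 29 lost the call in at least 1 alternative fit. Named genes with a higher effect with dBRD9 were Tnfsf10 (1.63), Tlr8 (1.42), Saa3 (1.41), Mtfr2 (1.21), Il1f9 (1.21), Ankrd24 (1.13), Nos2 (0.50), Cxcl10 (0.46) and Mt2 (0.43). Those with a lower effect were Tg (-2.77), Ccl17 (-1.96), Cbr2 (-1.62), Cass4 (-1.51), Adra1a (-1.32), Ctla2b (-1.31), F13a1 (-0.76), Cish (-0.71) and Il12b (-0.64), all differences on the log2 scale. Ctla2b has a close paralog, so its counts are uncertain. Tg had 1.53, 1.76 and 1.25 CPM in Dex + dBRD9 + LPS and at most 0.24 CPM in dBRD9 + LPS, against a mean of 11.6 CPM in Dex + LPS and 0.185 CPM in LPS.

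The Dex effect with dBRD9 minus that with iBRD9 was called for 3769 genes. Named genes with a higher effect with dBRD9 were Prss16 (2.87), Snx30 (2.26), P4ha2 (2.07), Kctd12 (1.96) and Zcchc24 (1.67), and those with a lower effect were Ly6c2 (-4.96), Jaml (-4.92), Tgfbi (-4.61), Ptx3 (-4.30), Serpinb9b (-4.20) and F10 (-4.09). F10, coagulation factor X, had 127, 118 and 121 CPM in Dex + dBRD9 + LPS and 297, 294 and 296 CPM in dBRD9 + LPS, against means of 87.0 CPM in Dex + iBRD9 + LPS and 12.4 CPM in iBRD9 + LPS. Tgfbi, a matrix protein, had 173, 173 and 177 CPM in Dex + dBRD9 + LPS and 158, 125 and 114 CPM in dBRD9 + LPS, against 77.6 and 2.41 CPM with iBRD9. Ly6c2 and Jaml had no reads in iBRD9 + LPS, so their values depend on the prior count of the fit and are no bounds, and shared reads of close Ly6c copies make the counts of Ly6c2 uncertain. Serpinb9b had means of only 0.441 CPM in Dex + iBRD9 + LPS and 0.603 CPM in iBRD9 + LPS. Few reads thus decide its effect with iBRD9 (-0.42), which was not called. No matched dose of the compounds is known. Single genes were not screened for outlying libraries, since groups held 3 libraries.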

How the results depend on the processing

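Counts of calls for Dex with dBRD9 stayed within 1.5 times of those reported under every alternative run, from 3190 higher without replicate 3 of dBRD9 + LPS to 4621 under library totals alone, and from 2773 lower under library totals alone to 3664 without both libraries set apart. Leaving out each of the 6 libraries gave 3190 to 3413 higher and 3144 to 3220 lower. Of 236 named genes called, 233 kept the call in all of them, the exceptions being Rc3h2, Arid1a and Mepce, and no named gene changed direction while called. The difference with and without dBRD9, 230 higher and 199 lower, was less stable: 105 and 106 with only the compared groups, 369 lower with DESeq2 (262 higher), 462 and 485 without both libraries set apart, and 136 to 407 higher and 122 to 483 lower without each library. Of 249 named genes tested there 54 were called, of which 29 lost the call in at least 1 alternative, and 53 that were not called gained one. In experiment 2, DESeq2 called 1168 higher (1964 lower), and leaving out each library gave 927 to 1286 higher and 1066 to 1524 lower. For LPS against vehicle, library totals alone gave 2421 higher and 8125 lower. The causes were not tested. Taking all called genes, AP-1 matches were in 6.48% of promoters of higher genes, against 10.3% at 2-fold. The glucocorticoid element was in 0.446%, against 0.749% at 2-fold.

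Samples share replicate numbers without a stated source. Same-numbered libraries deviated together at r = 0.302 and 0.289 for numbers 1 and 2 and -0.00949 for number 3, which correlated best with number 2 (0.266). Between Dex + dBRD9 + LPS and Dex + LPS r was 0.757, 0.448 and 0.582 for numbers 1 to 3, and between Dex + dBRD9 + LPS and LPS it was -0.000461, -0.124 and 0.157. Not every pair was over 0.1 across the groups compared, so the numbers were not taken as pairs, although Dex libraries of the same number deviated together. With a replicate block the counts were 3739 higher and 3437 lower for Dex with dBRD9, 243 and 221 for the difference, and 1637 and 1750 in experiment 2.

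Limits are the 3 libraries a group of unknown source, replicate 1 of Dex + dBRD9 + LPS with its length pattern, counts without a stated strand setting, and levels under about 1 CPM, where few reads decide a value.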

Other observations

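A family not listed for the comparison, chosen after its values were seen, was that of the Ms4a membrane proteins, a gene cluster on chromosome 19. Of 10 members tested 9 rose and 1 fell with Dex in the presence of dBRD9, with a median log2 fold change of 2.61, against 1.85 without a BRD9 compound. With iBRD9 8 rose and 1 fell, and the median was higher still, at 3.34. Compared with iBRD9, the effect with dBRD9 was higher for 2 members and lower for 3 (20% and 30%, against 14.3% and 15.5% of all genes). Ms4a6b had 198, 198 and 190 CPM in Dex + dBRD9 + LPS and 17.3, 13 and 13.2 CPM in dBRD9 + LPS (3.75, SE 0.085), and Ms4a6c had 369, 405 and 381 CPM with Dex and 48.5, 39.1 and 36.7 CPM without it (3.22, SE 0.08). Ms4a14 had 21.3, 24.1 and 22 CPM with Dex and 48.0, 46.7 and 36.4 CPM without it (-0.96, SE 0.087). The effect was higher with dBRD9 than without a compound for 4 members (40%, against 1.82% of all genes) and lower for none. They were Ms4a4b (1.05), Ms4a4c (0.70), Ms4a6c (0.66) and Ms4a6d (0.46). Several members are close paralogs whose shared reads may have been split. In experiment 2, with IFNγ, 4 of 9 members rose (44.4%, against 14.0% of all genes) and none fell, at a median of 0.28.

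The Ms4a genes were 1 of 9 families looked at after the values were seen, to be read against 29.1% of all genes higher and 26.7% lower. Of 24 interleukin receptor genes 3 rose and 13 fell, of 10 Serpinb genes 3 rose and 7 fell, of 10 Cd300 genes 3 rose and 6 fell, and of 4 Pilr and Lilr genes none rose and 3 fell. Of 27 Gpr genes 8 rose and 12 fell, of 18 Clec genes 7 rose and 7 fell, of 6 Slc2a genes 1 rose and 2 fell, and of 3 Ly6 genes 2 rose and none fell.

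The 30 genes called in opposite directions with dBRD9 and without a BRD9 compound had mostly small effects. Adap2, a GTPase-activating protein, had 30.3, 31.6 and 31.5 CPM in Dex + dBRD9 + LPS and 19.1, 22 and 17.6 CPM in dBRD9 + LPS (0.67, against -0.38 without a compound), and Cd83, an activation marker, had 371, 399 and 369 CPM with Dex and 451, 457 and 448 CPM without it (-0.25, against 0.18). The antisense transcript Adap2os (0.55, against -0.67) moved with Adap2, and without a stated strand setting their reads cannot be told apart. Adap2, Adap2os and Cd83 were chosen after their values were seen.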
